A study of Mus musculus with 8 samples.

Results

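The BCL2 family of apoptosis regulators was followed through 10 member genes in 3 cell lines. The members are the effectors Bax and Bak1, the anti-apoptotic genes Bcl2, Bcl2l1 (BCL-XL) and Mcl1, and the BH3-only genes Bcl2l11 (BIM), Bid, Bad, Bbc3 (PUMA) and Pmaip1 (NOXA). They were found as the probe sets whose RefSeq transcript maps to one of these symbols, and probe sets with identical values on all 8 arrays were counted 1 time. All 10 members were found among 15653 named genes. They account for 13 of the 22523 probe sets, which hold 11 distinct sets of values, because Bcl2l11 has 3 identical probe sets and Bcl2 has 2 that differ.

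Proteins of this family meet on the outer mitochondrial membrane, where they decide whether a cell under stress starts the intrinsic route of apoptosis. The effectors BAX and BAK can oligomerize and open that membrane to release cytochrome c, and the anti-apoptotic proteins hold them, or the proteins that activate them, in check. BH3-only proteins carry damage and starvation signals to the family, and several of the genes, among them Bax, Bbc3 and Pmaip1, are known transcriptional targets of p53.

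The study asked which genes follow the pattern of self-renewal in cultured cells, and compared mouse fetal fibroblast lines that all descend from p53-null cells. Ind-8 cells, the asymmetrically self-renewing cultures, carry a wild-type mouse p53 cDNA behind a modified human metallothionein promoter that zinc switches on. Con-3 cells, the symmetrically self-renewing cultures, make no p53; the study's methods present them as carrying the vector without the cDNA, and the sample labels as the parent of Ind-8. tI-3 cells derive from Ind-8, keep the zinc-driven p53 and also express an IMPDH II transgene constitutively, and they renew symmetrically. Every culture received 65 µM ZnCl2 for 48 h in medium with 10% dialyzed serum and puromycin at 5 µg/ml, and the tI-3 medium alone also held G418. Cultures had been selected for their number of population divisions. Each line is a single clone, so line, self-renewal state and, for tI-3, the drug cannot be told apart.

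RNA of independent cultures was hybridized to 1 Affymetrix mouse array each, 3 for Ind-8, 3 for Con-3 and 2 for tI-3. The values are log2 expression levels after RMA, a method that corrects background, normalizes the arrays and then summarizes the probes of a set, and that compresses differences among dim probe sets. No level of one probe set can be set against that of another, since probes differ in affinity. The 25th percentile of the probe-set means, at 4.30, is taken as the dim end of these arrays. Array medians ran from 6.12 to 6.19. Correlations between arrays of one line, taken across probe sets, ran from 0.994 to 0.996. The small number of arrays limits the precision of each comparison, most of all where the 2 tI-3 arrays enter.

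Some arrays stood apart in their controls. Over 14 probe sets for spiked hybridization controls, the mean was 9.04, 8.98 and 9.03 on the Ind-8 arrays and 9.05 and 9.16 on Con-3 replicates 1 and 2. It was higher on Con-3 replicate 3 (9.62) and on both tI-3 arrays (9.43 and 9.71). A control probe set for the 5′ part of 18S rRNA read 10.97 on Con-3 replicate 3 and between 4.55 and 5.25 on the other 7 arrays. The tI-3 arrays also had a narrower range of values, with upper quartiles of 8.17 and 8.12 against 8.26 to 8.33 on the other arrays. High hybridization controls therefore cover both tI-3 arrays and none of Ind-8, and their part in differences from tI-3 cannot be told apart from the line, except through Con-3, which has arrays at both levels.

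The label of each line was checked on the arrays first. The Trp53 probe set read 5.68, 5.87 and 5.80 on the Ind-8 arrays, 5.21, 5.29 and 5.27 on the Con-3 arrays and 5.60 and 5.69 on the tI-3 arrays. The lowest array of the p53-carrying lines was thus above the highest Con-3 array. Ind-8 exceeded Con-3 by 0.53 log2 units (SE 0.0873, limma with Benjamini-Hochberg adjustment, adjusted p = 0.00192). Which part of the transcript these probes cover is not given in the values, so the level in p53-null cells cannot be read as p53 message. Impdh2, the endogenous gene of IMPDH II, read 12.16, 12.19 and 12.22 on the Ind-8 arrays, 12.51, 12.56 and 12.53 on the Con-3 arrays and 12.34 and 12.38 on the tI-3 arrays. Both tI-3 arrays were above those of Ind-8 and below those of Con-3. The gene was lower in Ind-8 than in Con-3 by limma (log2 difference −0.34, Benjamini-Hochberg adjusted p = 0.0108). Ind-8 minus tI-3 was −0.17 and was not called (limma, Benjamini-Hochberg adjusted p = 0.163). Whether these probes also read the transgene is not given in the values. The metallothionein genes Mt1 and Mt2, which bind zinc and are induced by it, read between 12.94 and 13.95 on all 8 arrays. Mt2 was lower in tI-3 than in Con-3 without overlap (log2 difference −0.39, limma with Benjamini-Hochberg adjustment, adjusted p = 0.0248). That call was lost after a further quantile normalization (−0.18, limma, Benjamini-Hochberg adjusted p = 0.253), with the hybridization-control level as a block (−0.32, adjusted p = 0.198), and without Con-3 replicate 2 (−0.33, adjusted p = 0.0867) or tI-3 replicate 2 (−0.26, adjusted p = 0.217).

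Cdkn1a, the p53 target that encodes the cell cycle inhibitor p21, separated the lines fully. It read 9.70, 9.70 and 9.59 on the Ind-8 arrays, 5.73, 5.81 and 6.03 on the Con-3 arrays and 7.55 and 7.33 on the tI-3 arrays. Mdm2, which encodes the ubiquitin ligase that degrades p53, read 10.79, 11.19 and 10.71 in Ind-8, 9.02, 8.79 and 8.87 in Con-3 and 9.67 and 9.56 in tI-3. Both genes were thus highest in Ind-8 and lowest in Con-3, with tI-3 between them and no overlap.

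Markers of fibroblasts and of other cell types were read by list. Of 8 fibroblast markers 7 had a mean above the dim end, with Vim, an intermediate filament protein, at 13.89, and the exception was Thy1 at 4.16. The log2 of the summed level of this list was 15.64, 15.75 and 15.73 on the Ind-8 arrays, 15.34, 15.45 and 15.46 on the Con-3 arrays and 15.44 and 15.28 on the tI-3 arrays. By limma with Benjamini-Hochberg adjustment, 2 fibroblast markers were lower in tI-3 than in Con-3, Col3a1 (log2 difference −2.68, adjusted p = 0.000621) and Col1a1 (−1.06, adjusted p = 0.00474), both fibrillar collagens. Another 3 were higher, Pdgfrb (0.33, adjusted p = 0.03), Thy1 (0.37, adjusted p = 0.0275) and Fn1 (0.28, adjusted p = 0.0482), by the same test. Col1a1 was lost without tI-3 replicate 1 (−0.85, limma with Benjamini-Hochberg adjustment, adjusted p = 0.0518), and the 3 higher ones were not called with either tI-3 array left out. All 3 muscle genes were above the dim end, Des at 6.04, Myog at 4.69 and Myod1 at 4.33. So were Kdr at 6.15, 1 of 3 endothelial genes, Cd3e at 5.45, 1 of the 2 blood genes found of 3, and Krt5 at 5.20, 1 of 4 epithelial genes. Kdr was higher in tI-3 than in Con-3 (0.44, limma with Benjamini-Hochberg adjustment, adjusted p = 0.0133), and so was Cd3e (0.42, adjusted p = 0.0132). Neither passed without tI-3 replicate 2 (limma, Benjamini-Hochberg adjusted p = 0.124 and 0.133). The Ind-8 minus tI-3 differences called by limma with Benjamini-Hochberg adjustment were 2.42 for Col3a1 (adjusted p = 0.0013), 1.49 for Col1a1 (0.000907), 0.42 for Fn1 (0.00771), 0.39 for Vim (0.0122), −0.67 for Thy1 (0.00158), −0.76 for Kdr (0.000877) and −0.43 for Cd3e (0.0107). With the hybridization-control level as a block Col1a1 alone of these was still called, although the others kept their direction, at 2.69 for Col3a1, 0.42 for Fn1, 0.43 for Vim, −0.48 for Thy1, −0.63 for Kdr and −0.33 for Cd3e. After a further quantile normalization Vim was 0.08 and was not called (limma, Benjamini-Hochberg adjusted p = 0.513). Fn1, Vim and Cd3e were each lost with 1 tI-3 array left out. Between Ind-8 and Con-3 the same test called Fn1 (0.70, limma with Benjamini-Hochberg adjustment, adjusted p = 0.000321) and Pdgfrb (0.38, adjusted p = 0.00987) higher in Ind-8 and Kdr (−0.32, adjusted p = 0.0377) and Thy1 (−0.30, adjusted p = 0.0448) lower, the last 2 of which were lost with any 1 Ind-8 array left out. The part of other cell types in the members' values was not tested. Ptprc at 3.58, Cdh1 at 3.61, Pecam1 at 4.05 and Cdh5 at 4.15, which mark blood, epithelial and endothelial cells, lay under the dim end.

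**Figure D1:**
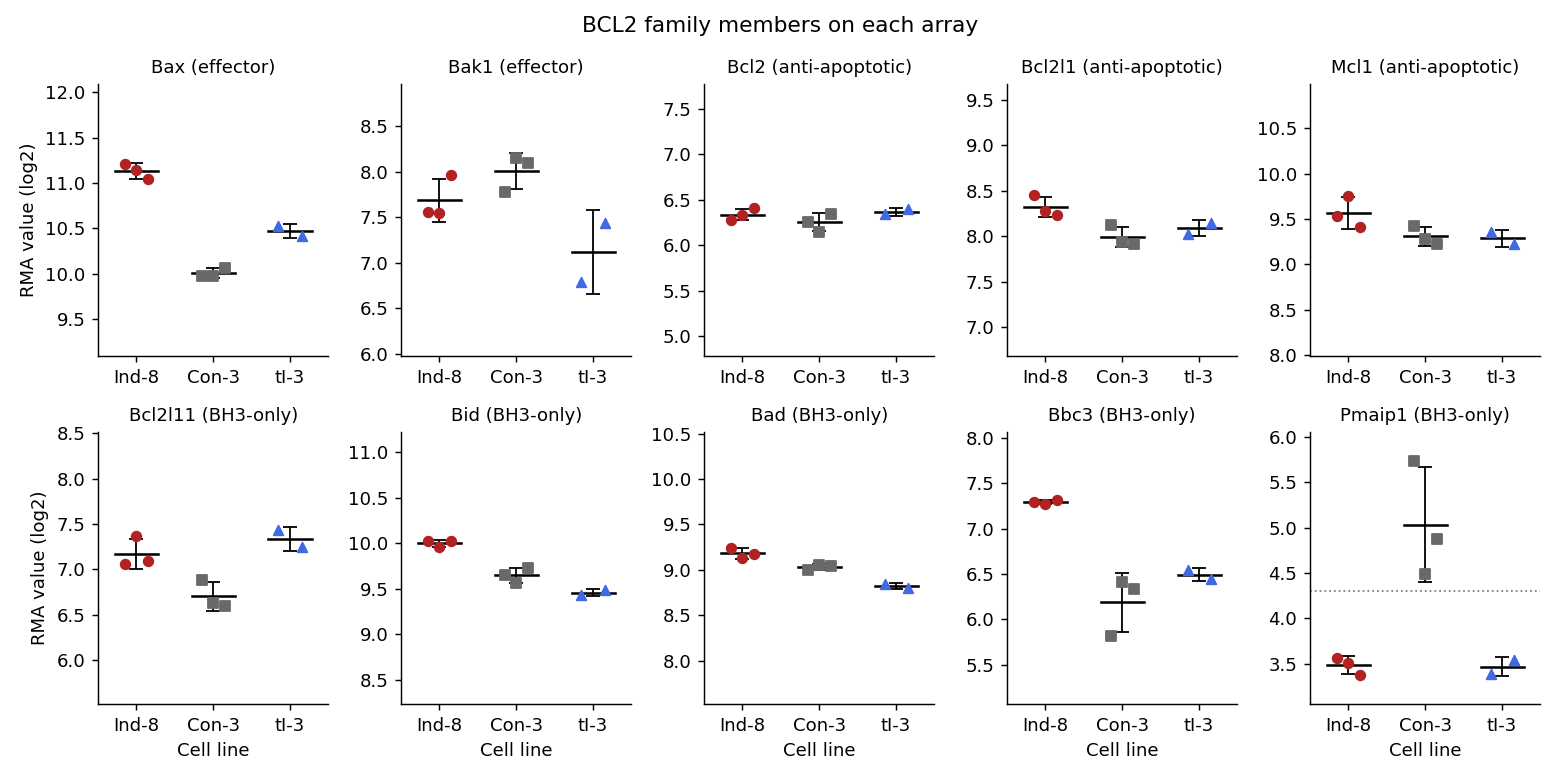
Log2 RMA value (vertical axes, each spanning 3 log2 units) of the 10 members on the 3 Ind-8, 3 Con-3 and 2 tI-3 arrays; points are arrays, long bars are line means, error bars are 1 SD, and the dotted line in the Pmaip1 panel is the dim end at 4.30. Bax and Bbc3 were highest on all 3 Ind-8 arrays, and Pmaip1 lay above the dotted line on the 3 Con-3 arrays only.

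Bax encodes a cytosolic effector that moves to mitochondria when it is activated. Its values were 11.21, 11.14 and 11.04 on the Ind-8 arrays, 9.97, 9.98 and 10.07 on the Con-3 arrays and 10.53 and 10.42 on the tI-3 arrays. All Ind-8 arrays were above all tI-3 arrays, and these above all Con-3 arrays. Its mean over the arrays lay at the 95.1th percentile of probe-set means, far from the dim end. Ind-8 exceeded Con-3 by 1.12 log2 units, or 2.18-fold (SE 0.0871, 95% interval 0.93 to 1.32, limma with Benjamini-Hochberg adjustment, adjusted p = 3.11e-05). In bulk RNA such a difference cannot tell more RNA per cell apart from more cells of a kind that expresses the gene, here the cycling and arrested cells of a culture. Ind-8 also exceeded tI-3, by 0.66 log2 units or 1.58-fold (SE 0.0974, limma with Benjamini-Hochberg adjustment, adjusted p = 0.00113). The tI-3 level lay 0.47 log2 units over that of Con-3, or 1.38-fold (SE 0.0974, limma with Benjamini-Hochberg adjustment, adjusted p = 0.00599). With the hybridization-control level as a block, which sets the tI-3 arrays against Con-3 replicate 3 alone, the last difference was 0.41 and was not called (limma, Benjamini-Hochberg adjusted p = 0.0751). The Ind-8 minus Con-3 difference among the 5 arrays with low controls was 1.15 (limma, Benjamini-Hochberg adjusted p = 0.000753).

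Of the pairs of genes compared by profile further on, Bax and Cdkn1a had the most alike values over the arrays, so the bases before their transcription starts are shown. The sequences come from RefSeq on build GRCm38.p6, as the 250 bases upstream of the annotated start, 5′ to 3′ on the strand of the gene. That of Bax is chr7:45466899-45467148, minus strand, and that of Cdkn1a is chr17:29090729-29090978, plus strand; both are promoter sequence ahead of the first exon of the transcript they were cut for. Capitals mark matches of the p53 decamer motif, the 10-base unit that is paired in a p53 response element and reads the same on both strands.
Bax: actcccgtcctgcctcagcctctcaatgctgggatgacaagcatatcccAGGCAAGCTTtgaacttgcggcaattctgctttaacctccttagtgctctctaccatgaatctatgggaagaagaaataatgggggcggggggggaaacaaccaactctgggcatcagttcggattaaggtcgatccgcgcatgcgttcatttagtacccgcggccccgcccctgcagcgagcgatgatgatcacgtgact
Cdkn1a: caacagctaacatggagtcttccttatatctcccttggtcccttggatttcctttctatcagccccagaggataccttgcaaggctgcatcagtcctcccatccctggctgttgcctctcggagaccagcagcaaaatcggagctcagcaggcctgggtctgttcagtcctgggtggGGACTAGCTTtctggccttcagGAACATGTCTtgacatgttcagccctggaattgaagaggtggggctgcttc
The Bax window holds 1 match, starting 201 bases before the start, and the Cdkn1a window shown holds 2, starting 73 and 51 bases before it. The other of the 2 Cdkn1a windows holds 0. Among 32851 RefSeq promoter windows of the same build, 7.13% hold a match in the 250 upstream bases and 8.36% in the whole window, which adds 50 bases after the start. Windows were available for 9 members, 15 in all, and that of Bax was the 1 with a match; the 3 windows of Bbc3 held none. The Mdm2 window held 1 match, 186 bases before its start. A match describes letters and is not a binding site.

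Bak1 encodes the other effector, which sits in the mitochondrial membrane already in healthy cells. It read 7.56, 7.54 and 7.96 on the Ind-8 arrays, 7.78, 8.15 and 8.10 on the Con-3 arrays and 6.79 and 7.44 on the tI-3 arrays. Both tI-3 arrays were below all others, and the other lines overlapped. The 2 tI-3 arrays lay far apart, with an SD of 0.463 against 0.238 in Ind-8 and 0.202 in Con-3. The tI-3 mean was below that of Con-3 (log2 difference −0.90, SE 0.201, 95% interval −1.34 to −0.45, limma with Benjamini-Hochberg adjustment, adjusted p = 0.00861), so Con-3 was 1.86-fold higher. Without tI-3 replicate 1 this difference was −0.57 and was not called (limma, Benjamini-Hochberg adjusted p = 0.0851). Ind-8 minus tI-3 was 0.57 (95% interval 0.13 to 1.02) and missed the threshold (limma with Benjamini-Hochberg adjustment, adjusted p = 0.0521). It passed under 5 of the alternatives, each by limma with Benjamini-Hochberg adjustment: without Con-3 replicate 1 (0.57, adjusted p = 0.0466), without tI-3 replicate 2 (0.90, adjusted p = 0.024), with the replicate number as a block (0.48, adjusted p = 0.0376), with a trend in the prior (adjusted p = 0.0465) and among probe sets above the 25th percentile (adjusted p = 0.0462). Without tI-3 replicate 1 it was 0.25 (limma, Benjamini-Hochberg adjusted p = 0.403), and after a further quantile normalization 0.40 (adjusted p = 0.218). Ind-8 minus Con-3 was −0.32 (95% interval −0.72 to 0.08, limma with Benjamini-Hochberg adjustment, adjusted p = 0.244). The effectors therefore did not share an order of the lines: Bax had its lowest level in Con-3 and Bak1 in tI-3.

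Bcl2, the founding anti-apoptotic gene of the family, varied little. Its brighter probe set read 6.28, 6.33 and 6.41 in Ind-8, 6.26, 6.15 and 6.35 in Con-3 and 6.34 and 6.40 in tI-3. The lines overlapped in every comparison. Ind-8 minus Con-3 was 0.09 (95% interval −0.11 to 0.28, limma with Benjamini-Hochberg adjustment, adjusted p = 0.546). The intervals of Ind-8 minus tI-3 (−0.25 to 0.19) and of tI-3 minus Con-3 (−0.10 to 0.34) also held 0. The dimmer Bcl2 probe set ran from 4.28 to 4.75, close to the dim end, and its lines overlapped as well.

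Bcl2l1 encodes BCL-XL, which restrains BAX and BAK and binds several BH3-only proteins. Its values were 8.45, 8.28 and 8.24 in Ind-8, 8.12, 7.94 and 7.91 in Con-3 and 8.03 and 8.15 in tI-3. Each Ind-8 array was above each of the others, while Con-3 and tI-3 overlapped. The Ind-8 mean exceeded that of Con-3 by 0.33 log2 units, or 1.26-fold (SE 0.0984, 95% interval 0.11 to 0.55, limma with Benjamini-Hochberg adjustment, adjusted p = 0.0352). This call was lost without Ind-8 replicate 1 (0.27, adjusted p = 0.118), without Ind-8 replicate 2 (0.35, adjusted p = 0.0697), without Con-3 replicate 2 (0.31, adjusted p = 0.112) and without Con-3 replicate 3 (0.29, adjusted p = 0.112), each by limma with Benjamini-Hochberg adjustment. Among the arrays with low controls it was 0.29 (limma, Benjamini-Hochberg adjusted p = 0.13). Ind-8 minus tI-3 was 0.23 (95% interval −0.01 to 0.48) and tI-3 minus Con-3 was 0.10 (95% interval −0.15 to 0.34), and neither passed the test. After a further quantile normalization these were 0.07 and 0.23, and neither was called (limma, Benjamini-Hochberg adjusted p = 0.694 and 0.15).

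Mcl1 encodes a short-lived anti-apoptotic protein that NOXA targets. It read 9.53, 9.76 and 9.41 in Ind-8, 9.43, 9.27 and 9.23 in Con-3 and 9.36 and 9.22 in tI-3. Ind-8 overlapped Con-3 by 1 array and lay above both tI-3 arrays. Ind-8 minus Con-3 was 0.26 (95% interval 0.02 to 0.50, limma with Benjamini-Hochberg adjustment, adjusted p = 0.126) and Ind-8 minus tI-3 was 0.28 (95% interval 0.01 to 0.55, adjusted p = 0.107). Neither passed the adjusted threshold. tI-3 minus Con-3 was −0.02, with an interval from −0.29 to 0.25.

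Bcl2l11 encodes BIM, a BH3-only protein that can activate BAX and BAK directly and can bind BCL-2, BCL-XL and MCL-1. Its values were 7.06, 7.36 and 7.09 in Ind-8, 6.88, 6.63 and 6.60 in Con-3 and 7.43 and 7.25 in tI-3. Con-3 had the lowest arrays, and Ind-8 and tI-3 overlapped. The tI-3 level exceeded that of Con-3 by 0.63 log2 units, or 1.55-fold (SE 0.132, limma with Benjamini-Hochberg adjustment, adjusted p = 0.00577). Without tI-3 replicate 1 the difference was 0.54 and just missed the threshold (limma, Benjamini-Hochberg adjusted p = 0.0536). The level in Ind-8 was above that in Con-3 by 0.47 log2 units, or 1.38-fold (SE 0.118, limma with Benjamini-Hochberg adjustment, adjusted p = 0.0168). That call was lost without Ind-8 replicate 2 (0.37, adjusted p = 0.0677), without Con-3 replicate 2 (0.43, adjusted p = 0.0635) and without Con-3 replicate 3 (0.42, adjusted p = 0.063), each by limma with Benjamini-Hochberg adjustment. Among the arrays with low controls it was 0.42 (limma, Benjamini-Hochberg adjusted p = 0.0765). Ind-8 minus tI-3 was −0.17 (95% interval −0.46 to 0.13), so these p53-carrying lines were not separated.

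Bid encodes a BH3-only protein that caspase-8 cleaves, which links death receptors to mitochondria. It read 10.02, 9.96 and 10.03 in Ind-8, 9.65, 9.56 and 9.72 in Con-3 and 9.43 and 9.48 in tI-3. The lines did not overlap, with Ind-8 highest and tI-3 lowest. Ind-8 exceeded tI-3 by 0.54 log2 units, or 1.46-fold (SE 0.0938, limma with Benjamini-Hochberg adjustment, adjusted p = 0.00252). Probe sets of like brightness, within 0.5 log2 units of the Bid mean, had a median Ind-8 minus tI-3 difference of 0.13, and with arrays quantile-normalized again that of Bid was 0.43 (limma, Benjamini-Hochberg adjusted p = 0.00877). With the hybridization-control level as a block it was 0.66 and was not called (limma, Benjamini-Hochberg adjusted p = 0.0533). Ind-8 exceeded Con-3 by 0.36 log2 units, or 1.28-fold (SE 0.0839, limma with Benjamini-Hochberg adjustment, adjusted p = 0.0122). Without Con-3 replicate 2 this was 0.32 and was not called (limma, Benjamini-Hochberg adjusted p = 0.0553). tI-3 minus Con-3 was −0.19 (95% interval −0.40 to 0.02), where probe sets of like brightness had a median of −0.14.

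Bad encodes a BH3-only protein that growth factor signalling keeps inactive by phosphorylation. Its values were 9.25, 9.13 and 9.18 in Ind-8, 9.00, 9.05 and 9.05 in Con-3 and 8.85 and 8.80 in tI-3. The order of the lines was that of Bid, without overlap, over a smaller range. Ind-8 exceeded tI-3 by 0.36 log2 units, or 1.28-fold (SE 0.0909, limma with Benjamini-Hochberg adjustment, adjusted p = 0.0144). Probe sets of like brightness had a median difference of 0.15 in that comparison. After a further quantile normalization the difference for Bad was 0.22 and was not called (limma, Benjamini-Hochberg adjusted p = 0.0877), nor was it without tI-3 replicate 2 (0.33, adjusted p = 0.0942) or with the hybridization-control level as a block (0.38, adjusted p = 0.222). Ind-8 minus Con-3 was 0.15 (95% interval −0.03 to 0.33, limma with Benjamini-Hochberg adjustment, adjusted p = 0.229). tI-3 minus Con-3 was −0.21 (95% interval −0.41 to −0.01), beside −0.13 for probe sets of like brightness, and did not pass after adjustment (limma with Benjamini-Hochberg adjustment, adjusted p = 0.119).

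Bbc3 encodes PUMA, a BH3-only protein that p53 induces and that binds every anti-apoptotic member. It read 7.29, 7.27 and 7.32 in Ind-8, 5.82, 6.41 and 6.33 in Con-3 and 6.54 and 6.44 in tI-3. The Ind-8 arrays were tightly grouped (SD 0.0219) and stood above all the others, and both tI-3 arrays lay just above the highest Con-3 array. Ind-8 exceeded Con-3 by 1.11 log2 units, or 2.15-fold (SE 0.141, 95% interval 0.79 to 1.42, limma with Benjamini-Hochberg adjustment, adjusted p = 0.00052). Ind-8 exceeded tI-3 by 0.80 log2 units, or 1.75-fold (SE 0.157, limma with Benjamini-Hochberg adjustment, adjusted p = 0.00468). With the hybridization-control level as a block the last difference was 1.02 and was not called (limma, Benjamini-Hochberg adjusted p = 0.0703). tI-3 minus Con-3 was 0.30 (95% interval −0.05 to 0.65, limma with Benjamini-Hochberg adjustment, adjusted p = 0.189). Without Con-3 replicate 1, the lowest array, it was 0.12 (limma, Benjamini-Hochberg adjusted p = 0.465).

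Pmaip1 encodes NOXA, a BH3-only protein that binds MCL-1 and is also a known p53 target. It read 3.57, 3.52 and 3.38 in Ind-8, 5.73, 4.49 and 4.87 in Con-3 and 3.39 and 3.55 in tI-3. The Con-3 arrays were above the dim end of 4.30, although spread over more than a log2 unit (SD 0.634), and the 5 arrays of the p53-carrying lines were all below it. Its order of the lines was thus the reverse of that of Bax and Bbc3 between Ind-8 and Con-3. Ind-8 minus Con-3 was −1.54 (SE 0.245, limma with Benjamini-Hochberg adjustment, adjusted p = 0.00162), a level 2.91-fold higher in Con-3. tI-3 minus Con-3 was −1.56 (SE 0.273, 95% interval −2.17 to −0.96, limma with Benjamini-Hochberg adjustment, adjusted p = 0.00234), or 2.95-fold higher in Con-3. Since the lower levels lie at the dim end, where RMA compresses differences, these folds are limited by that end. Without Con-3 replicate 1 the differences were −1.19 (limma, Benjamini-Hochberg adjusted p = 0.000509) and −1.21 (adjusted p = 0.000575). Among arrays with low controls Ind-8 minus Con-3 was −1.62 (limma, Benjamini-Hochberg adjusted p = 0.013). Ind-8 minus tI-3 was 0.02 (95% interval −0.59 to 0.63), with both levels under the dim end.

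**Figure D2:**
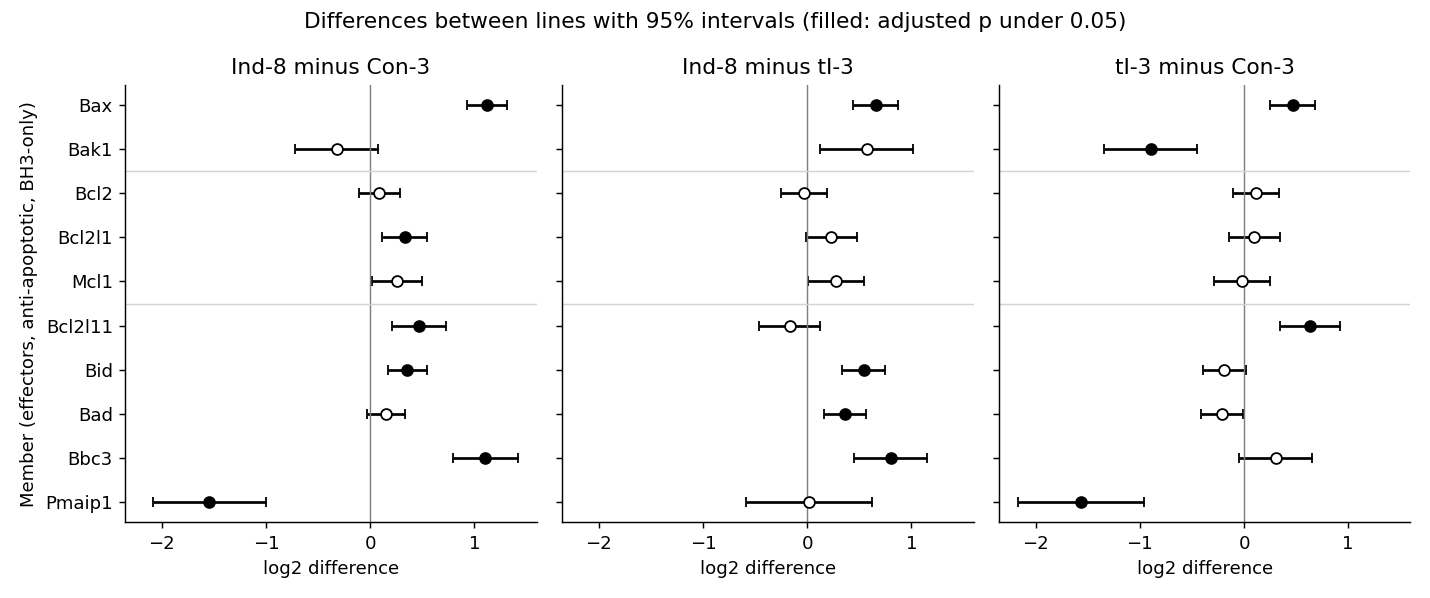
Log2 difference between line means (horizontal axes) for each member (vertical axis, ordered by role) in the 3 comparisons, with 95% intervals from limma on all 8 arrays; filled points passed an adjusted p under 0.05. Bax was above 0 in each panel, Pmaip1 was near −1.5 in both comparisons with Con-3, and no interval of Bcl2 excluded 0.

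Between Ind-8 and Con-3, Bax and Bbc3 had the largest higher levels and Pmaip1 the largest lower one. By limma, adjusted by Benjamini-Hochberg across 22523 probe sets, 5 of 10 members were higher in Ind-8, where 10.9% of all probe sets were. In the other direction 1 of 10 was lower, where 11% of all probe sets were. Higher members were 1 of 2 effectors, 1 of 3 anti-apoptotic genes and 3 of 5 BH3-only genes, and the lower one was a BH3-only gene. The median difference of the members was 0.29, against −0.06 over all probe sets. A rank product test, which ranks probe sets by their differences over all pairs of arrays and calls them at a percentage of false positives (pfp) under 0.05, was used beside it. It called Bax (pfp 0.0163) and Bbc3 (pfp 0.0174) higher, 2 of 10 where 2.22% of all probe sets were. It called Pmaip1 lower, with no permuted value as extreme (pfp 0), 1 of 10 where 1.43% of probe sets were. Bax was lost to this test without any 1 of the Ind-8 replicates (pfp 0.096, 0.0784 and 0.091 without replicates 1, 2 and 3). So was Bbc3 (pfp 0.0919, 0.0779 and 0.108), which was also lost without Con-3 replicate 1 (pfp 0.0773). The limma count of 6 was 3 without Con-3 replicate 2, and Bax, Bbc3 and Pmaip1 were called with each array left out. Of all probe sets 16.9% were called without Con-3 replicate 2, against 21.9% in the main fit.

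Between Ind-8 and tI-3, whose p53 cDNA is shared, 4 members passed limma. By limma with Benjamini-Hochberg adjustment, 4 of 10 members (Bax, Bid, Bad and Bbc3) were higher in Ind-8, where 15.6% of all probe sets were. None was lower, where 15.5% of all probe sets were, and at an unadjusted p under 0.05 the limma counts were 6 higher and 0 lower, against 20.3% and 23.6% of all probe sets. Of the 3 anti-apoptotic genes 0 passed limma's adjusted threshold and 1, Mcl1, passed at an unadjusted p under 0.05 (0.0461). The rank product test called 0 members in either direction, with 1.59% of all probe sets higher and 0.435% lower. The median difference of the members was 0.32, against −0.06 over all probe sets, and 0.19 after a further quantile normalization. Probe sets within 0.5 log2 units of the mean of a member had median differences of 0.11 to 0.15 for 7 of the members. With the hybridization-control level as a block 1 member, Bax, was called (log2 difference 0.75, limma with Benjamini-Hochberg adjustment, adjusted p = 0.0457). In that fit 3.14% of all probe sets were called in either direction, against 31.1% in the main fit.

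Between tI-3 and Con-3, the lines that both renew symmetrically, members differed in both directions. By limma with Benjamini-Hochberg adjustment, 2 of 10 (Bax and Bcl2l11) were higher in tI-3, where 10.2% of all probe sets were. Another 2 (Bak1 and Pmaip1) were lower, where 15.1% of all probe sets were. None of the 3 anti-apoptotic genes passed, by limma's adjusted or unadjusted threshold (0 of 3) or by rank product. At an unadjusted p under 0.05 by limma, 17.3% of all probe sets were higher and 20.0% lower. The rank product test called Pmaip1 lower (pfp 0.00905), 1 of 10 where 1.67% of all probe sets were. It called 0 members higher, where 0.635% of all probe sets were. Pmaip1 was lost to this test without Con-3 replicate 1 (pfp 0.115) and without Con-3 replicate 3 (pfp 0.061). The limma count of 4 was lower without tI-3 replicate 1, which leaves a single tI-3 array, and so was the count of all probe sets. The 3 comparisons share arrays, so their values stand side by side and are not independent of each other.

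Pro- and anti-apoptotic members were then set against each other on each array, as the mean difference from the Con-3 means. For the 7 pro-apoptotic members it was 0.19, 0.19 and 0.20 on the Ind-8 arrays and −0.24 and −0.18 on the tI-3 arrays. For the 3 anti-apoptotic members it was 0.23, 0.27 and 0.17 on the Ind-8 arrays and 0.06 and 0.07 on the tI-3 arrays. The pro-apoptotic mean was also taken without Pmaip1. Over the other 6 pro-apoptotic members it was 0.47, 0.47 and 0.50 on the Ind-8 arrays, −0.004 and 0.04 on the tI-3 arrays and between −0.08 and 0.05 on the Con-3 arrays. The mean Ind-8 minus Con-3 difference was 0.48 for these 6 and 0.19 for all 7, against 0.22 for the anti-apoptotic group. Leaving out Pmaip1 was chosen after seeing the data and turned the order of the groups, so no conclusion is drawn from that order. The mean tI-3 minus Con-3 difference of the 6 was 0.02. It was −0.03 with the hybridization-control level as a block and 0.12 after a further quantile normalization, and with Pmaip1 kept the 3 values were −0.21, −0.23 and −0.13. With Pmaip1 kept, the pro-apoptotic medians were 0.36, 0.31 and 0.38 on the Ind-8 arrays and −0.18 and −0.16 on the tI-3 arrays. Without it they were 0.37, 0.49 and 0.38 and, in tI-3, 0.08 and 0.05. The anti-apoptotic medians were 0.22, 0.29 and 0.15 in Ind-8 and 0.05 and 0.15 in tI-3. So in Ind-8 both groups lay above Con-3 by either measure, and in tI-3 the pro-apoptotic group was below Con-3 with Pmaip1, whose tI-3 level is under the dim end, while without it the sign differed between fits. The difference between the groups was given no test. The difference of Bax from Bcl2, also taken from Con-3, was 1.18, 1.05 and 0.88 on the Ind-8 arrays and 0.43 and 0.26 on the tI-3 arrays. Each Ind-8 array exceeded each tI-3 array in this measure, and these exceeded the Con-3 arrays, which ran from −0.04 to 0.07. Because Bcl2 varied little, this measure largely repeats the values of Bax and depends on the choice of pair. Bak1, the other effector, had means below Con-3, by −0.32 in Ind-8, which was not called by limma, and by −0.90 in tI-3.

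**Figure D3:**
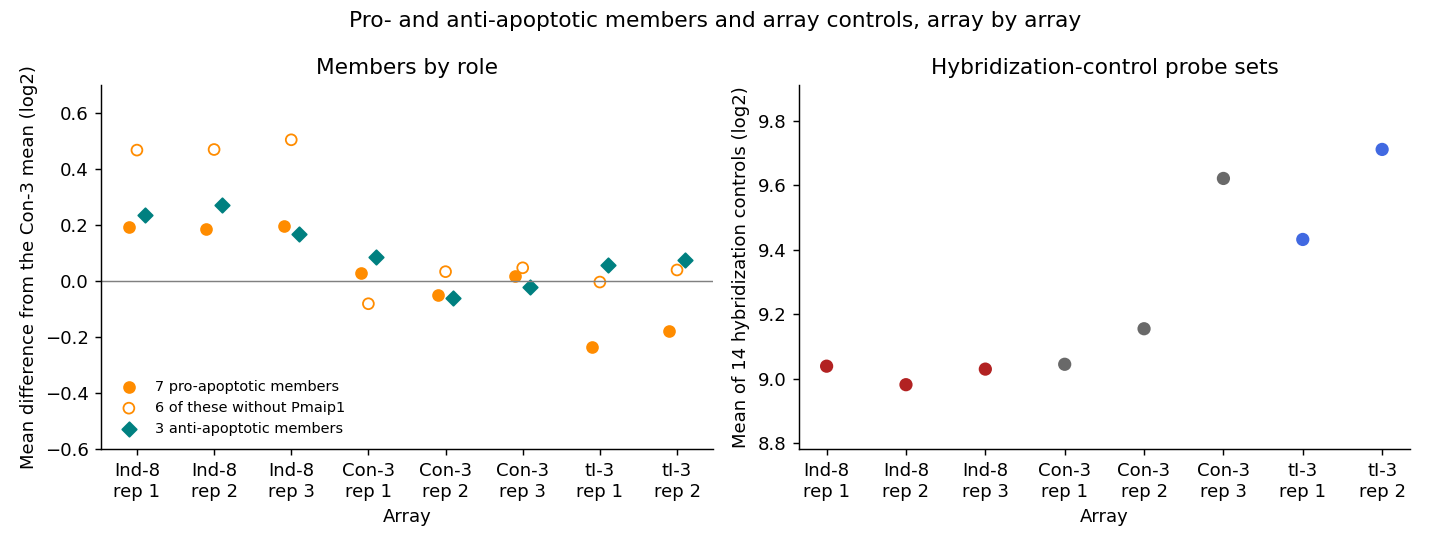
Left, mean log2 difference from the Con-3 mean (vertical axis) over the 7 pro-apoptotic (filled circles) and 3 anti-apoptotic (diamonds) members on each array, with open circles for the 6 pro-apoptotic members other than Pmaip1; right, mean log2 value of 14 hybridization-control probe sets on each array, coloured by line. On the tI-3 arrays the filled circles lie under 0 and the open ones near 0, and these arrays, with Con-3 replicate 3, have the high controls.

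Other genes with profiles like those of the members were named by Pearson's r over the 8 arrays, among 4670 genes whose line means span at least 0.5 log2 units. The r describes 8 arrays in 3 lines, which largely share their line means. For Bax they were Cdkn1a (0.997), H13 (0.995) and Cpt1c (0.994). For Bbc3 they were Slc25a1 (0.984), 3110039M20Rik (0.981) and Tnfrsf1a (0.980), a receptor for TNF. These genes were highest in Ind-8 and lowest in Con-3. For Bid they were Cacna1g (0.994), Pdgfc (0.986) and Tcta (0.980), highest in Ind-8 and lowest in tI-3. For Bcl2l11 they were Ube2w (0.992), Ikbkg (0.987), the regulatory subunit of the IKK complex, and Mgst2 (0.978). For Bak1 they included Mks1 (0.972) and Cdc42ep2 (0.965), lowest in tI-3. For Pmaip1 they were Arhgap31 (0.994), Neto2 (0.965) and Larp4b (0.964), highest in Con-3.

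Beyond the members, a list of 40 other genes of the mitochondrial pathway was read, of which 35 were found. Of these, 5 were higher and 2 lower in Ind-8 than in Con-3 by limma with Benjamini-Hochberg adjustment, where 10.9% and 11% of all probe sets were, with a median difference of −0.02. Apaf1, the scaffold of the apoptosome that cytochrome c assembles, read 7.91, 8.06 and 7.91 in Ind-8, 7.14, 6.93 and 7.08 in Con-3 and 7.02 and 6.82 in tI-3. Ind-8 stood apart and the other lines overlapped. The Ind-8 mean exceeded that of Con-3 by 0.91 log2 units, or 1.88-fold (SE 0.0983, limma with Benjamini-Hochberg adjustment, adjusted p = 0.000196), and it was the 1 gene of the list called by rank product there. Ind-8 exceeded tI-3 by 1.04 log2 units, or 2.05-fold (limma with Benjamini-Hochberg adjustment, adjusted p = 0.000182).

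Caspases are the proteases that carry out the cell's demolition. Casp8, the initiator that cleaves BID, read 8.68, 8.94 and 8.48 in Ind-8, 8.27, 8.20 and 7.92 in Con-3 and 8.55 and 8.38 in tI-3. The Ind-8 arrays were all above those of Con-3, and overlapped those of tI-3. Ind-8 minus Con-3 was 0.57 (SE 0.135, limma with Benjamini-Hochberg adjustment, adjusted p = 0.0121). Among the arrays with low controls Casp8 was higher by 0.47 and was not called (limma, Benjamini-Hochberg adjusted p = 0.0634). Casp2, another initiator, averaged 8.11 in Ind-8, 8.74 in Con-3 and 8.43 in tI-3, with no overlap between the lines. Its Ind-8 minus Con-3 difference was −0.63 (SE 0.0851, limma with Benjamini-Hochberg adjustment, adjusted p = 0.000724), so these initiators differed in opposite directions.

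Ppp1r13b, which encodes the p53 partner ASPP1, was higher in Ind-8 than in Con-3 by 0.60 (limma with Benjamini-Hochberg adjustment, adjusted p = 0.0044). Bnip3l, a mitochondrial protein with a role in mitophagy, was higher by 0.44 (limma with Benjamini-Hochberg adjustment, adjusted p = 0.0258). The Bnip3l call was lost without Ind-8 replicate 1 (0.45, adjusted p = 0.0576) or 2 (0.34, adjusted p = 0.1) and without Con-3 replicate 1 (0.41, adjusted p = 0.0678) or 3 (0.40, adjusted p = 0.0862), by limma with Benjamini-Hochberg adjustment. Between Ind-8 and tI-3, 8 of the 35 genes were higher and 4 lower by limma, 12 in all, where 15.6% and 15.5% of all probe sets were. Without tI-3 replicate 2, which leaves a single tI-3 array, fewer of the 35 were called, and so were fewer of all probe sets. Between tI-3 and Con-3, 4 were higher and 2 lower, 6 in all, where 10.2% and 15.1% of all probe sets were. Here 3 were called without Con-3 replicate 2, where 18.7% of all probe sets were, against 25.4% in the main fit. Without tI-3 replicate 2, which leaves a single tI-3 array, fewer were also called, of the list and of all probe sets. Htra2, a mitochondrial protease that relieves caspase inhibition, was singled out after its values were seen. It read 10.36, 9.96 and 10.16 in Ind-8, 10.37, 10.44 and 10.55 in Con-3 and 9.36 and 9.31 in tI-3. Both tI-3 arrays were lowest, with a tI-3 minus Con-3 difference of −1.12 (SE 0.124, limma with Benjamini-Hochberg adjustment, adjusted p = 0.000199). Bak1, Bid and Bad also had both tI-3 arrays below all others. For Bid and Bad, tI-3 minus Con-3 was −0.19 and −0.21, and neither was called by limma. Probe sets of like brightness had medians of −0.14 and −0.13 there. The share of all probe sets with this order was not counted.

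**Figure D4:**
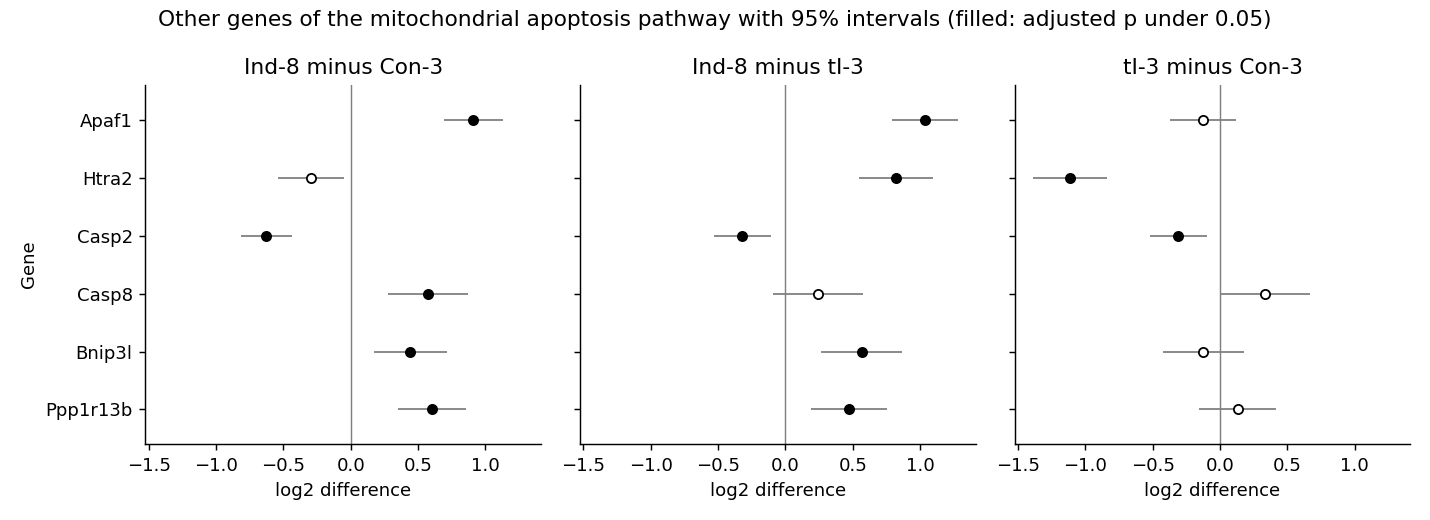
Log2 difference (horizontal axes) of 6 other pathway genes named in the text (vertical axis) in the 3 comparisons, with 95% intervals from limma; filled points passed an adjusted p under 0.05. Apaf1 was filled in both comparisons of Ind-8, at 0.91 and 1.04, and Htra2 was furthest below 0 in tI-3 minus Con-3, at −1.12.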

How the data were processed

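RNA of 8 cultures was measured on Affymetrix mouse arrays. The authors ran RMA with a custom chip description (version 12) that regroups probes by RefSeq transcript, and deposited log2 values, which were used without further normalization. Setting aside 64 Affymetrix control probe sets leaves 22523. Names come from RefSeq genes of assembly GRCm38.p6, which matched 18294 probe sets (81.2%).

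Means of the 3 lines were fitted on all 8 arrays with limma 3.58.1 (R 4.3.3), p-values were adjusted by Benjamini-Hochberg over the whole table, and calls took an adjusted p under 0.05. The rank product test was re-implemented in Python 3.11.15 with numpy 2.4.6 and pandas 2.3.3, with 100 permutations. Figures were drawn with matplotlib 3.10.9. Both tests were tested on simulated data with known changes of 1 and 2 log2 units in Ind-8. For Ind-8 minus Con-3, limma recovered 94 and 99 of 100 at these sizes with 4 false calls, and the rank product 99 and 100 with 32. For Ind-8 minus tI-3, limma recovered 87 and 98 with 4 false calls, and the rank product 92 and 100 with 21. For tI-3 minus Con-3, with nothing changed, false calls were 0 and 21, so the rank product exceeded its nominal share. The simulated noise was independent from value to value and held no array-wide shift such as the narrower range of the tI-3 arrays. The simulated false calls therefore give no error rate for the real comparisons with tI-3. Lines and replicates follow the sample labels.

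The members and the lists were chosen with earlier results of these data known. Where a gene had several distinct probe sets, the brightest stood for it. Genes of the wider list are named where limma called them between Ind-8 and Con-3 at an absolute log2 difference of at least 0.5, with Bnip3l (0.44) beside them, and for profiles the 3 highest r are named. A few results under these rules are not reported here. The list as a whole was given no test. Alternatives were other normalizations, priors, filters, blocks and thresholds and each array left out. The fits within arrays of low or high hybridization controls, and the group mean without Pmaip1, were chosen after seeing the data. The genes Bcl2a1a, Bcl2a1b, Bcl2a1d, Bnip3, Vdac3 and Cd68 were not found and are not analysed here.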

Additional observations from a re-analysis of the deposited data

Results flagged for a closer look

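For 4 of 10 members the difference from Con-3 was not the same in Ind-8 and in tI-3, by limma on the difference between these differences. That value equals Ind-8 minus tI-3 and so also draws on the 2 tI-3 arrays with high hybridization controls. In the same comparison limma called 15.6% of all probe sets higher in Ind-8 and 15.5% lower. The rank product test called 0 members there. The difference was 0.6582 log2 units for Bax (limma with Benjamini-Hochberg adjustment, adjusted p = 0.00113) and 0.8034 for Bbc3 (adjusted p = 0.00468). It was 0.5441 for Bid (limma with Benjamini-Hochberg adjustment, adjusted p = 0.00252) and 0.3605 for Bad (adjusted p = 0.0144). That of Bad was 0.2196 after a further quantile normalization and was not called by limma. For Bax and Bbc3 the arrays of both lines lay above those of Con-3, while for Bid and Bad those of Ind-8 lay above and those of tI-3 below. The part of the array controls in these differences was not tested beyond the block fit, under which Bax alone of the 4 passed and the others were 0.66 for Bid, 0.38 for Bad and 1.02 for Bbc3.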

How the results depend on the processing

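Over 646 member values recomputed under alternatives, 590 kept their direction and side of the threshold, 37 fell short of it and 5 passed it. The remaining 14 changed sign, none of them called in either fit. Several alternatives leave the log2 difference unchanged by design, such as a trend in the prior, control probe sets kept or an array of the third line left out. Values not called in the main fit that stayed uncalled are among those kept. For Ind-8 minus tI-3, Pmaip1 (0.02) was −0.2212 with the hybridization-control level as a block and −0.0572 to 0.0946 with 1 array left out. The brighter Bcl2 probe set (−0.03) was 0.11 with the block and −0.0651 to 0.0001 with 1 array left out, and the dimmer one (−0.08) was 0.1129 when quantile-normalized and −0.2825 to 0.113 with 1 array left out. With 1 array left out the dimmer one was also −0.0166 to 0.1067 for Ind-8 minus Con-3 and −0.0617 to 0.3339 for tI-3 minus Con-3. For tI-3 minus Con-3, Mcl1 (−0.02) was 0.0641 with the block and within arrays of high controls, 0.0793 when quantile-normalized, and −0.0849 to 0.0472 with 1 array left out. The pro-apoptotic mean of that comparison, −0.21, was 0.0181 without Pmaip1. For Ind-8 against Con-3, the 6 members called by limma ranged from 3 to 6 with 1 array left out, and were 3 at an absolute log2 difference of at least 0.5. The 3 called by rank product ranged from 1 to 3 with 1 array left out, were 1 at a pfp under 0.01, and 6 with limma in its place. For Ind-8 against tI-3, the 4 by limma were 1 with the hybridization-control level as a block, and the 0 by rank product were 4 with limma. For tI-3 against Con-3, the 4 by limma ranged from 2 to 4 with 1 array left out and were 2 within the arrays of high controls, a fit chosen after seeing the data whose only Con-3 array is replicate 3. The 1 by rank product ranged from 0 to 1, and was 4 with limma.

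In the wider list, 7, 12 and 6 genes were called in these comparisons by limma, and 1, 1 and 1 by rank product. Left-out arrays gave 4 to 12 in the second and 3 to 6 in the third. The block gave 2 and 3, a log2 minimum of 0.5 gave 7 in the second, and arrays of high controls gave 3 in the third. Of all probe sets limma called 4942, 7009 and 5715, and rank product 822, 455 and 520. The log2 minimum gave 2544, 3732 and 3507. The block gave 708 in the second and 3066 in the third, left-out arrays 2781 to 7261 and 3093 to 5625. Arrays of low controls gave 2968 in the first and those of high controls 2260 in the third. With a tI-3 array left out, the lone one was assumed to vary like the other lines. The causes were not tested.

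With the replicate number as a replicate block, limma called 6, 5 (with Bak1 added) and 4 members, and 5382, 8341 and 6376 of all probe sets. In the labels, arrays of different lines share only a replicate number. For Ind-8 with Con-3, residual correlations were 0.27, 0.029 and 0.381 at the same number and −0.408 to 0.117 at unlike numbers. At the same number they were 0.009 and −0.225 for Ind-8 with tI-3, and 0.205 and 0.042 for Con-3 with tI-3. The residuals of the 2 tI-3 arrays are equal and opposite, so their values are not independent. Whether a shared number means cultures handled together was not tested. Levels near 4.30, as of Pmaip1, limit folds.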
